A study of Danio rerio with 4 samples.

Results

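Kruppel-like factors are transcription factors that bind GC-rich and CACCC-type DNA through zinc fingers near the end of the protein. They fall into groups by what lies before the fingers: KLF2, KLF4 and KLF6 mostly activate genes, KLF3 represses through the co-repressor CtBP, and KLF9, KLF11 and KLF13 can recruit the Sin3 co-repressor. In vertebrates several of them respond to outside signals, KLF2 and KLF4 to blood flow in endothelium, KLF9 to glucocorticoids and thyroid hormone, and KLF15, in mammals, to glucocorticoids and fasting. Fish often carry a pair of genes for a factor that has 1 gene in mammals, here klf2a with klf2b and klf11a with klf11b.

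The 10 genes described are klf2a, klf2b, klf3, klf4, klf6a, klf9, klf11a, klf11b, klf13 and klf15, out of 19260 genes that the array annotation names through a probe set of 1 symbol. The list was selected on family membership with the values of these arrays already known, among them the differences of klf2a and klf9 from wildtype. Their differences are therefore descriptions, and no test is attached to any of them. All 10 were present in the annotation, each with 1 probe set, and 22 other genes of the KLF and SP family were named there too. The probes' positions are not known here, so whether the probe sets of klf2a and klf2b, or of klf11a and klf11b, are free of cross-hybridisation between the copies was not tested.

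RNA came from eyes of zebrafish 3.5 months after fertilisation, with both sexes mixed in each sample. There was 1 Affymetrix array for each of 4 genotypes: wildtype, eys-/-, lrp5-/- and eys+/-; lrp5+/-, the last called the double heterozygote below. The series was made to compare each mutant genotype with wildtype. The eys gene encodes a matrix protein of photoreceptors and lrp5 a Wnt co-receptor. The mutant alleles, the number of fish behind an array and the hour of sampling are not given in the sources used here, while all fish were kept in 14 hours of light and 10 hours of darkness.

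With 1 array per genotype there is no spread between fish, so every difference below is that of 2 arrays and carries no error or p-value. Levels are log2 RMA signals, and 1 log2 unit is a 2-fold change. The filter for a measured gene was that its higher reading of a pair reached 6.57, the median of all values with 1 gene symbol, and a measured gene was called when its readings differed by 2-fold or more. Array medians lay between 5.03 and 5.06. Over measured genes the robust SD of the log2 difference ran from 0.17 to 0.23 for the 6 pairs of arrays; it is the scatter of genes between 2 arrays, not of fish, and serves below only as a yardstick. The labelled tissue was checked by markers: the 5 named rod markers, 6 cone markers and 7 lens markers were above the filter on all 4 arrays. Most named markers of surface epithelium, pigment epithelium, endothelium and skeletal muscle were above it too. Of 2 named myelin markers 1 was above it, mbpa. It read 10.17 in wildtype, 9.44 in lrp5-/-, 9.07 in the double heterozygote and 8.58 in eys-/-. The part of myelinated tissue in the member readings was not tested. In such a mixture fewer cells of a type and less RNA per cell cannot be told apart. The lrp5 probe set was read at 6.92 in the double heterozygote, 7.17 in lrp5-/-, 7.27 in eys-/- and 7.39 in wildtype, and 0 probe sets carry the name eys. Its position with respect to the lrp5 lesion is unknown here, and it does not check the genotypes.

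All 10 members passed the filter in all 6 pairs of arrays. Their ranges over the 4 arrays spread from 2.72 for klf9 down to 0.05 for klf11a, with klf13, klf15 and klf3 in between. The range over the 4 arrays reached 1 log2 unit or more for 4 members, klf9, klf2a, klf2b and klf11b, against 3.56% of all 10743 genes measured on at least 1 array, and klf4 lay just under it with 0.97. At the other end klf11a ranged over 0.05 and klf6a over 0.06, less than nearly all other genes: 99% and 98.5% of genes had a range at least as large. The median range was 0.82 for the members and 0.28 for all measured genes. Since the list was drawn up with differences of klf2a and klf9 known, nothing about the family is read from these ranges.

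**Figure D1:**
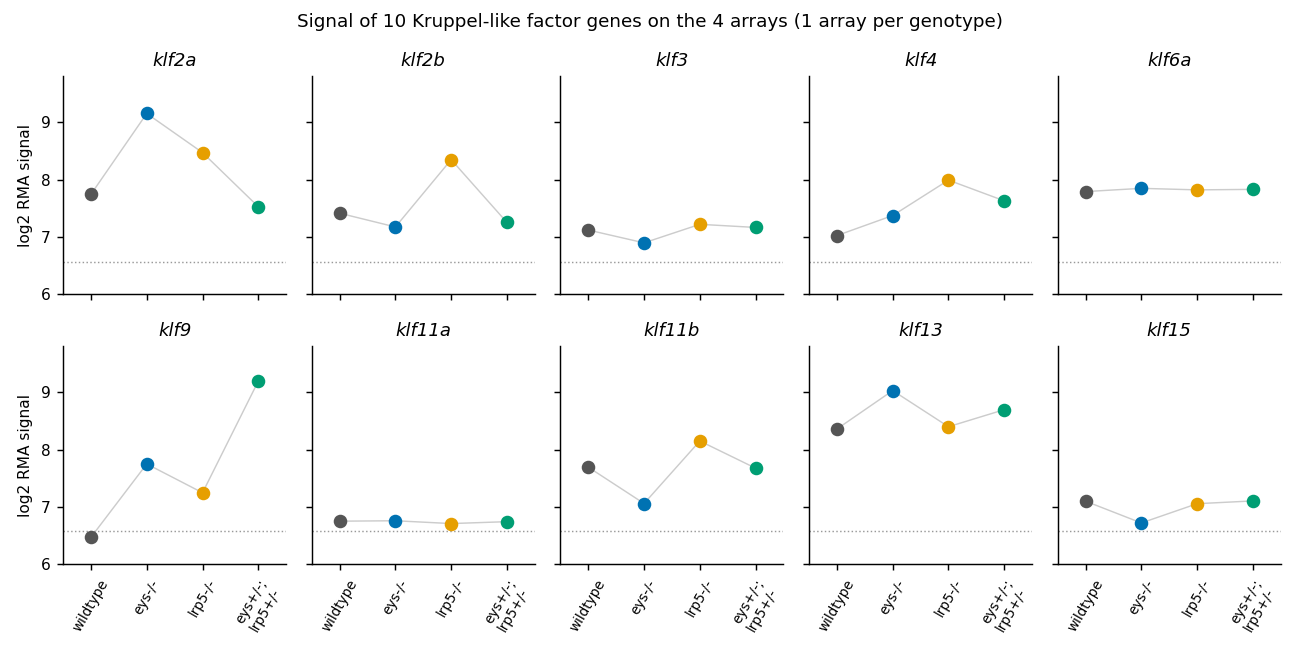
Log2 RMA signal (vertical axis) of each member on the 4 arrays (horizontal axis, 1 point per array and genotype); grey lines join the points of a gene and the dotted line is the level filter of 6.57. Only klf9 in wildtype lies under the filter; klf9 peaks in the double heterozygote, klf2a in eys-/- and klf2b, klf4 and klf11b in lrp5-/-. Points are to be compared within a panel, since different probe sets do not share a scale.

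The gene klf9 had the widest range. Its signal was 6.47 in wildtype, 7.25 in lrp5-/-, 7.75 in eys-/- and 9.20 in the double heterozygote. Wildtype was thus the lowest array and the double heterozygote the highest, and every step in that order was wider than the robust SD of the pair. The double heterozygote was above wildtype by 2.72 (6.61-fold), and 4 of 10434 measured genes, klf9 included, differed at least as much. In eys-/- the difference from wildtype was 1.28 (2.43-fold) and in lrp5-/- 0.78 (1.71-fold). These 3 differences share the wildtype reading, which lay below the level filter, so they are not separate observations of klf9. Without wildtype, the double heterozygote was above eys-/- by 1.45 and above lrp5-/- by 1.95, and the homozygotes differed from each other by 0.50. With the other 3 arrays averaged as the reference, the eys-/- difference was 0.11 and not called, and the lrp5-/- difference changed sign, to -0.56. The double heterozygote then differed by 2.04. For the homozygotes that average includes the double heterozygote at 9.20, which raises it. It is therefore not a repeat of their comparison with wildtype. With the level filter raised to 7.80 the eys-/- call was also lost, because 7.75 is below it.

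The genes next to klf9 did not share its pattern. In the RefSeq order of assembly GRCz12tu the nearest measured protein-coding genes are trpm3, cemip2, fam219ab and bco2l, and their differences from wildtype in the 3 mutant genotypes lay between -0.25 and 0.29. For klf2a the flanking genes fam32a, mrpl54, eps15l1a and rc3h1a differed by -0.22 to 0.24.

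The other Sin3-binding members behaved differently from klf9 and from each other. The gene klf13, expressed in heart and lymphocytes in mammals, read 8.36 in wildtype, 8.40 in lrp5-/-, 8.70 in the double heterozygote and 9.03 in eys-/-. Wildtype and lrp5-/- were within the yardstick of each other, and eys-/- was above wildtype by 0.67 (1.59-fold), under the 2-fold limit. The gene klf11b, a relative of the TGF-beta-inducible KLF11 of mammals, read 7.06 in eys-/-, 7.68 in the double heterozygote, 7.69 in wildtype and 8.15 in lrp5-/-. Wildtype and double heterozygote were nearly equal, with the homozygotes on either side, -0.63 and 0.46 from wildtype. Its copy klf11a read 6.71 in lrp5-/-, 6.74 in the double heterozygote, 6.75 in wildtype and 6.76 in eys-/-. The klf11a readings did not follow those of klf11b, and lay just above the level filter throughout.

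Among the activating members, klf2a is the fish gene whose expression in endothelium and heart valves follows blood flow. Its signal was 7.53 in the double heterozygote, 7.75 in wildtype, 8.47 in lrp5-/- and 9.15 in eys-/-. Both homozygotes were above wildtype, by 1.41 (2.66-fold) in eys-/- and 0.73 (1.65-fold) in lrp5-/-, while the double heterozygote differed from wildtype by -0.22, less than the yardstick of 0.23. Between mutant arrays, the double heterozygote was below eys-/- by 3.09-fold, a difference of -1.63, and its difference from lrp5-/- was -0.94. Set against the other 3 arrays averaged, klf2a in eys-/- was still 1.24 higher, so the call held under that reference too, whereas the double heterozygote then differed by -0.93.

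Its copy klf2b peaked on another array. The readings were 7.18 in eys-/-, 7.25 in the double heterozygote, 7.42 in wildtype and 8.35 in lrp5-/-. The lrp5-/- array stood apart from the other 3, 1.91-fold above wildtype, just under the limit, 2.26-fold above eys-/- and 2.14-fold above the double heterozygote. Of the copies, klf2a was highest in eys-/-. There klf2b read lowest, but within the yardstick of the double heterozygote, with a difference of 0.08.

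The gene klf4, active in surface epithelia and endothelium, read 7.03 in wildtype, 7.37 in eys-/-, 7.63 in the double heterozygote and 7.99 in lrp5-/-. All 3 mutant arrays were above wildtype, by 0.35, 0.61 and 0.97, and none by 2-fold. With the other 3 arrays averaged as the reference these became -0.18, 0.17 and 0.65. The gene klf6a, needed with klf7a for regrowth of optic axons in zebrafish, was level, at 7.79 in wildtype, 7.82 in lrp5-/-, 7.83 in the double heterozygote and 7.85 in eys-/-.

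The CtBP-binding repressor klf3 read 6.90 in eys-/-, 7.12 in wildtype, 7.17 in the double heterozygote and 7.22 in lrp5-/-. The gene klf15, in mammals a regulator of amino acid and glucose metabolism, read 6.72 in eys-/-, 7.06 in lrp5-/-, 7.10 in wildtype and 7.11 in the double heterozygote. For both, eys-/- was the lowest array, at -0.22 and -0.38 from wildtype, and the other 3 arrays lay within 0.10 of wildtype. KLF15 is a glucocorticoid target in mammals, as klf9 is in fish. The klf15 readings did not follow those of klf9, and a response of klf15 to glucocorticoids in these eyes was not tested.

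Counted by comparison, 1 of 10 members was called higher and 0 lower in the double heterozygote against wildtype, where 1.72% of measured genes were called, 1.23% as higher and 0.489% as lower. That member was klf9, and the median member differed by 0.02 against 0.00 for all measured genes. In eys-/- against wildtype 2 members were called higher, klf2a and klf9, and 0 lower, where 0.632% of genes were called, 0.326% as higher and 0.307% as lower. The median member there differed by 0.03 against -0.01. In lrp5-/- against wildtype 0 members were called, where 0.671% of genes were, 0.393% as higher and 0.278% as lower, and the median member differed by 0.28 against 0.00. Since klf2a and klf9 were listed for such differences, nothing about the family is read from these counts.

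At a limit of 1.5-fold, 4 of 10 members were higher in lrp5-/- (klf4, klf2b, klf9 and klf2a) and 0 lower, where 3.26% of measured genes were past it and 2.07% were higher. In the double heterozygote 2 members, klf9 and klf4, were past that limit, where 6.16% of genes were. In eys-/- klf2a, klf9 and klf13 were higher and klf11b lower, 4 members in all, where 3.28% of genes were past it.

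Between the mutant arrays, klf9 was called higher and klf2a lower in the double heterozygote against eys-/-, where 2.18% of measured genes were called, 1.48% as higher and 0.699% as lower. Against lrp5-/- klf9 was called higher and klf2b lower, where 0.59% were called, 0.3% as higher and 0.29% as lower. In lrp5-/- against eys-/- klf2b and klf11b were called higher, the latter by 1.09, and 0 were lower, where 1.43% were called, 0.919% as higher and 0.507% as lower. With 1.5-fold as the limit that pair of arrays gave 5 members against 5.44% of genes. Over the 6 pairs klf3, klf4, klf6a, klf11a, klf13 and klf15 were called at 2-fold in 0.

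**Figure D2:**
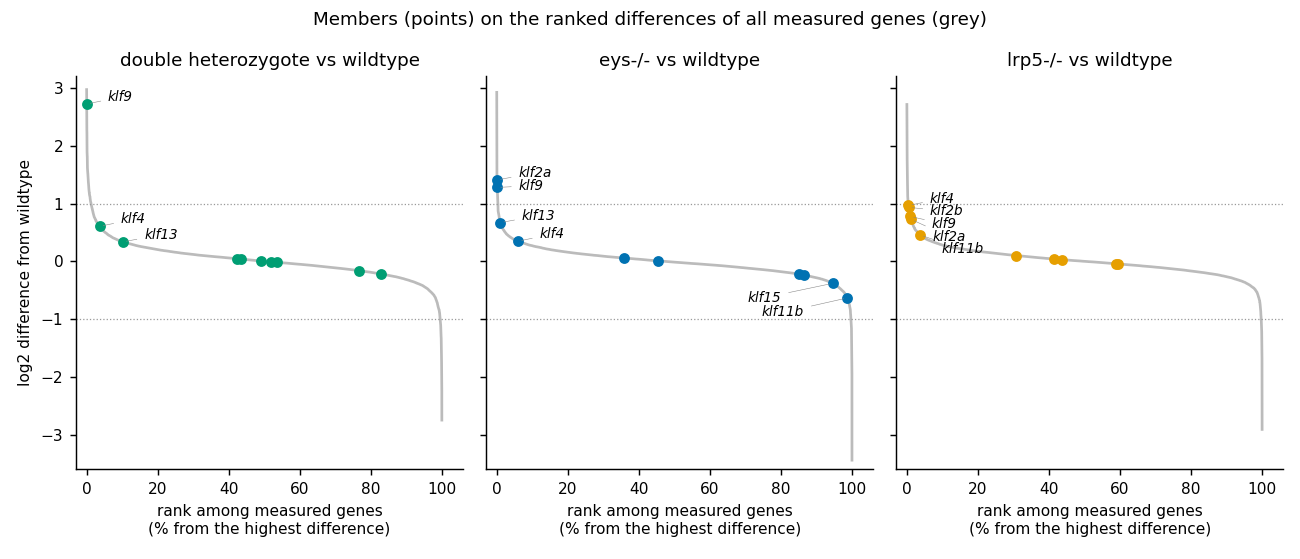
Log2 difference from wildtype (vertical axis) of all measured genes, ranked from the highest to the lowest (horizontal axis, percent of measured genes), as grey curves, with the 10 members as points in each of 3 comparisons; members differing by under 0.3 are not labelled and dotted lines mark 2-fold. In the double heterozygote klf9 at 2.72 stands alone, in eys-/- klf2a at 1.41 and klf9 at 1.28 are past 2-fold, and in lrp5-/- klf4 at 0.97 and klf2b at 0.93 lie just under it.

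Among the other genes of the family, klf1 alone was called against wildtype. Of 28 other KLF and SP genes listed, 22 were named on the array, and 13 were measured in the double heterozygote, 12 in eys-/- and 11 in lrp5-/- against wildtype. Past 2-fold were 0, 0 and 1 of them, and the medians were -0.05, -0.14 and -0.04. For these and the lists below, 1.72%, 0.632% and 0.671% of all measured genes were called in the same comparisons. The medians of all measured genes were 0.00, -0.01 and 0.00. The measured genes other than klf1 lay between -0.69, for sp2 in eys-/-, and 0.71, for klf5l in the double heterozygote. Those are about the size of the klf13 difference of 0.67 in eys-/-. The klf5l reading in wildtype, 6.16, was under the filter. The 1 called gene was klf1, the activator of red blood cell genes, which read 8.21 in wildtype, 8.31 in eys-/-, 8.17 in the double heterozygote and 7.18 in lrp5-/-, a difference of -1.03. For the 3 named red blood cell markers out of 5, the log2 of the summed signal was 9.92 in wildtype and 9.47 in eys-/- eyes. It was 10.01 in lrp5-/- eyes and 9.87 in the double heterozygote. In lrp5-/- the 2 measured markers differed from wildtype in opposite directions, alas2 by 0.54 and rhag by -0.27. The other, slc4a1a, was under the filter on all 4 arrays. The part of red blood cells in the klf1 readings was not tested. The co-repressors through which klf3 and the klf9 group act were flat: 0 of 14, 0 of 13 and 0 of 13 measured genes were past 2-fold, and the widest differences were -0.28 for suds3 in eys-/- and -0.28 for sin3b in the double heterozygote.

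Glucocorticoid response genes were set beside klf9. The list was drawn up with results for several of its members known. Over all measured genes 1.23% were higher and 0.489% lower in the double heterozygote. The shares were 0.326% and 0.307% in eys-/-, and 0.393% and 0.278% in lrp5-/-. Of 20 measured in the double heterozygote, 5 were higher and 1 lower by 2-fold, with a median of 0.11; in eys-/- 1 of 19 was higher and 2 lower, with a median of -0.14; in lrp5-/- 1 of 20 was higher and 1 lower, with a median of 0.22. The receptor chaperone gene fkbp5, a classical target, read 7.00 in wildtype, 7.90 in lrp5-/-, 9.92 in eys-/- and 9.97 in the double heterozygote. That is the order of klf9, but for fkbp5 the last pair of readings was within the yardstick. Between the same arrays klf9 differed by 1.45. The cell cycle inhibitor gene cdkn1a had another order, with 4.99 in wildtype, 5.48 in eys-/- eyes, 6.27 in lrp5-/- eyes and 6.99 in the double heterozygote, and its lower readings were under the filter. The stress-response gene ndrg1b ran the opposite way, from 11.58 in wildtype down to 10.53 in eys-/- eyes, 9.95 in lrp5-/- eyes and 8.83 in the double heterozygote. Named after its values were seen, tsc22d3, another classical target, was level at 9.91, 9.94, 9.85 and 9.89 in wildtype, eys-/-, lrp5-/- and double heterozygote. Likewise named afterwards, zbtb16a and zbtb16b were called higher in the double heterozygote, by 1.24 and 1.13. They differed from wildtype by -0.03 and 0.19 in eys-/- and by 0.53 and 0.21 in lrp5-/-. The receptor gene nr3c1, also named afterwards, read 9.22, 9.08, 9.03 and 8.90. Of the 10 measured thyroid hormone genes, 0 were past 2-fold in any of the 3 comparisons. The widest difference was that of dio2, whose product activates the hormone, at 0.96 in the double heterozygote, and dio1 differed by 0.52 in eys-/-.

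Clock genes also differed widely in the double heterozygote, where 9 of 38 measured genes were higher and 8 lower by 2-fold. Over all measured genes 1.23% were higher and 0.489% lower there, 0.393% and 0.278% in lrp5-/-, and 0.326% and 0.307% in eys-/-. In lrp5-/- 4 of 38 were higher and 3 lower, and in eys-/- 0 of 36 were higher and 2 lower, with a median of -0.28. For the double heterozygote against lrp5-/-, where klf9 differed by 1.95, 0 of 37 were called, against 0.59% of all measured genes. Against eys-/-, where klf9 differed by 1.45, 14 of 37 were higher and 6 lower, against 1.48% and 0.699%. In lrp5-/- against eys-/-, where klf9 differed by -0.50, 12 of 38 were higher and 2 lower, against 0.919% and 0.507%. The repressor gene nr1d4b read 6.40 in wildtype, 5.42 in eys-/- eyes, 7.85 in lrp5-/- eyes and 8.82 in the double heterozygote. Its relative nr1d4a differed from wildtype by 1.88 in the double heterozygote, 1.09 in lrp5-/- and -0.85 in eys-/-. The period gene per1a, which is in the clock and the glucocorticoid list, differed by 1.88, 1.01 and -0.93 in the same order. The activator gene bmal1a differed by -2.23, -1.44 and -0.03. The readings of nr1d4b in wildtype and eys-/-, of nr1d4a in eys-/- and of bmal1a in lrp5-/- and the double heterozygote were under the filter, so the size of differences that rest on them is uncertain, and nr1d4b was not measured in eys-/- against wildtype. In eys-/- klf9 was above wildtype while nr1d4a and per1a read below it, neither by 2-fold. The part of the clock phase of the samples in the klf9 readings was not tested.

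For klf2 factors, the known endothelial route runs from flow sensors and the CCM complex through the kinases MEKK3, MEK5 and ERK5 to MEF2 factors. Of 14 measured genes of this route, 2 were called higher in the double heterozygote, 0 in eys-/- and 1 in lrp5-/-, with 0 lower, and the medians were 0.13, 0.07 and 0.09. The called genes were of the MEF2 family. The gene mef2ca read 6.77 in wildtype, 7.07 in eys-/- eyes, 8.58 in lrp5-/- eyes and 9.71 in the double heterozygote, and mef2cb 8.43, 8.67, 9.31 and 10.25. Both were highest in the double heterozygote, where klf2a read lowest, though within the yardstick of wildtype.

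Endothelial and flow genes, 22 measured, leaned below wildtype in all 3 comparisons, which share the wildtype array and are not separate observations. In eys-/- 0 were called and the median was -0.31. In lrp5-/- 2 were lower with a median of -0.24. The double heterozygote had 1 lower, with a median of -0.17. Without wildtype, the median was -0.08 for the double heterozygote against eys-/- and -0.08 against lrp5-/-. For lrp5-/- against eys-/- it was 0.09. The gene apold1a, of endothelial cells, read 7.34 in wildtype, 7.70 in eys-/-, 7.19 in the double heterozygote and 5.77 in lrp5-/-, the last under the filter. The vessel matrix gene mmrn2a differed by -1.05 in lrp5-/- and -1.37 in the double heterozygote. Of 9 endothelial markers 7 were named. The log2 of their summed signal was 10.94 in wildtype, 10.72 in lrp5-/-, 10.67 in the double heterozygote and 10.60 in eys-/-. It was lowest in eys-/-, the array with the highest klf2a, but the 3 mutant arrays lay close together, between 10.60 and 10.72. Their order is therefore not read further.

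The summed signal of surface epithelium markers was highest in eys-/-. All 7 were named. The log2 of their summed signal was 12.42 in wildtype, 12.52 in the double heterozygote, 12.71 in lrp5-/- and 12.86 in eys-/-. The brightest genes, such as krt5 at 11.48 in wildtype, weigh most in this sum. In eys-/- all 7 markers read above wildtype. In lrp5-/- 6 did and 1, epcam, read below it by -0.72, at 6.26 and under the filter. Both arrays with klf2a above wildtype were those with the highest epithelial sums, while klf4 was highest in lrp5-/- and not where the sum was highest. The part of epithelial tissue in the klf2a and klf4 readings was not tested.

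Immediate early genes are switched on quickly by stimulation without new protein, and KLF2 and KLF4 are often counted among them. The list had 3 of 22 measured genes higher in the double heterozygote, 0 of 19 in eys-/- and 4 of 23 in lrp5-/-, with 0 lower. The medians were 0.19, -0.23 and 0.20. Over all measured genes 1.23%, 0.326% and 0.393% were called higher in the same comparisons. In lrp5-/-, where klf2b, klf4 and klf11b peaked, the called genes were gadd45ga at 2.48, fosab at 1.96, fosb at 1.77 and npas4a at 1.58. In the double heterozygote gadd45ga differed by 2.27 and npas4a by 1.51, but fosab by 0.34. The wildtype readings of gadd45ga, fosb and npas4a were under the filter, which leaves the size of their differences uncertain. Genes of amino acid catabolism and gluconeogenesis, processes that KLF15 controls in mammals, had 0 of 14 measured genes past 2-fold in each comparison. The widest differences were 0.65 for got2b in eys-/- and -0.54 for fbp1a in the double heterozygote.

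**Figure D3:**
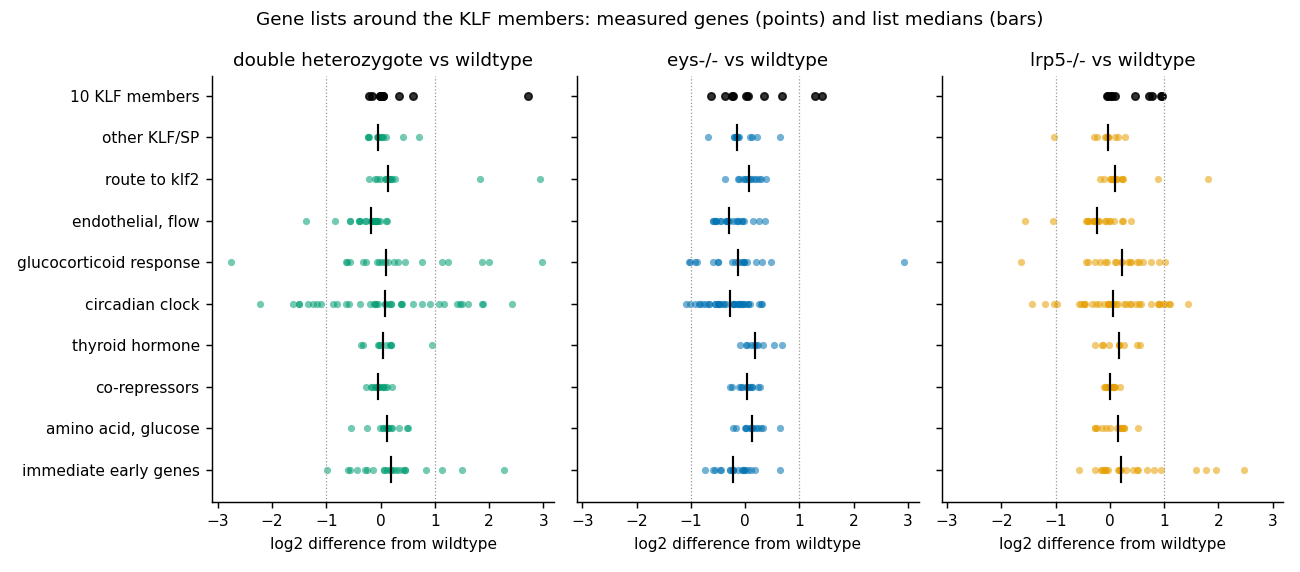
Log2 difference from wildtype (horizontal axis) of the 10 members (black points, top row) and of the measured genes of 9 lists (coloured points, rows; black bars are list medians) in 3 comparisons; dotted lines mark 2-fold. Most points past 2-fold are in the clock, glucocorticoid and immediate early lists, and the co-repressor, thyroid hormone and amino acid lists have none.

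The genes whose array profile was nearest to each widely ranging member were found by the distance between profiles after subtracting each gene's mean, among 311 other genes with a range of 1 or more. With 4 arrays such a likeness is a description only. Nearest to klf9 were slc16a12b, the glycolytic regulator gene pfkfb4b, the rod factor gene nr2e3 and pde6ga, a phosphodiesterase subunit gene, at distances of 0.73 to 0.87. The readings of slc16a12b in wildtype, eys-/- and lrp5-/-, 5.38, 6.44 and 6.15, were under the filter. The gene pfkfb4b read 7.39 in wildtype, 8.88 in eys-/- eyes, 8.00 in lrp5-/- eyes and 9.20 in the double heterozygote, so it shared the order of klf9, while nr2e3 read 7.69, 8.30, 8.67 and 9.59, with lrp5-/- above eys-/-. For the 5 named rod markers, nr2e3 among them, the log2 of the summed signal was 13.64 in wildtype and 13.64 in eys-/- eyes. It was 13.66 in lrp5-/- eyes and 13.71 in the double heterozygote. The brightest genes, such as gnat1 at 12.56 in wildtype, weigh most in this sum. In the double heterozygote nr2e3 differed from wildtype by 1.91 and was the 1 rod marker called among the 5. The gene pde6ga, which is not on that marker list, differed there by 1.67.

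Nearest to klf2a were the keratin gene krt1-19d, ostn, the secretory epithelial gene agr1 and the uroplakin gene upk3b, at distances of 0.52 to 0.55. The gene agr1, which is also among the surface epithelium markers, differed from wildtype by 0.45 in the double heterozygote, 0.98 in lrp5-/- and 1.44 in eys-/-, and krt1-19d by -0.26, 0.76 and 0.81. Nearest to klf2b were f13a1a.1, the photolyase family gene cry-dash, frmd5b and the phosphatase gene dusp1, at 0.14 to 0.35. The closest, f13a1a.1, read 6.69 in wildtype, 6.36 in eys-/- eyes, 7.73 in lrp5-/- eyes and 6.58 in the double heterozygote. Its eys-/- reading was under the filter, as were the wildtype and eys-/- readings of frmd5b. Nearest to klf11b were the light-induced clock gene per2, jac6, lrit1b and hyal1, at 0.11 to 0.21. The gene per2 read 10.03, 9.55, 10.57 and 10.11 in wildtype, eys-/-, lrp5-/- and double heterozygote. The hyal1 reading in eys-/- was under the filter.

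**Figure D4:**
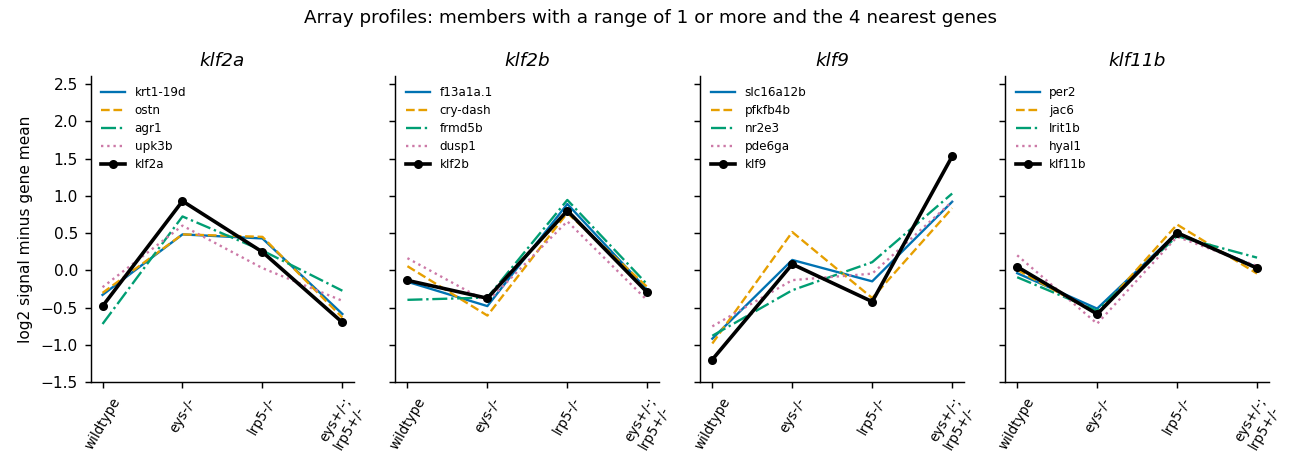
Log2 signal minus the gene's mean over the 4 arrays (vertical axis) by array (horizontal axis) for klf2a, klf2b, klf9 and klf11b (black, with points) and the 4 genes nearest to each (coloured lines). Distances were 0.11 to 0.21 around klf11b and 0.73 to 0.87 around klf9. Profiles were not scaled to a gene's range, which was 1.09 for klf11b and 2.72 for klf9. The distances therefore do not rank likeness between members.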

How the data were processed

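Whole-eye RNA of 4 genotypes was hybridised to 1 array each. The table deposited by the authors holds log2 signals for 75212 probe sets, made with RMA and Transcriptome Analysis Console 4.0 per the submitters' processing notes. Since RMA equalises the distributions of arrays, a shift of most genes would not be seen. Their build was not given in the sources used here. Array annotation dated 2013 names 21661 probe sets, 20806 with 1 symbol, and only these were used; the probe set with the highest mean stood for a gene. RefSeq identifiers updated 1 symbol. The members and gene lists were chosen with earlier results of these data known. All members are named; of each list, up to 4 genes past 2-fold with the largest differences from wildtype, or the 2 largest where none passed. Likeness took the 4 nearest profiles, skipping clone-style names. Alternatives changed the filter, fold limit, scaling, probe set choice and reference array. Python 3.11.15, pandas 2.3.3 and statsmodels 0.14.6 were used. The number of arrays limits the precision.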

Additional observations from a re-analysis of the deposited data

How the results depend on the processing

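With 1 array per genotype no replicate could be left out. No paired analysis was possible because each genotype has a single array. Of the 390 member differences recomputed, 180 came from changed filters or probe set choice. Those could not move, since a filter leaves a difference as it is and each member has 1 probe set. Under the 3 other scalings, which gave another 180, the largest move was 0.06. Over all alternatives 0 of the called ones changed sign. At 1.5-fold the members called numbered 2 in the double heterozygote, 4 in eys-/- and 4 in lrp5-/- against wildtype, and 5 in lrp5-/- against eys-/-, in place of 1, 2, 0 and 2; the background shares were then 6.16%, 3.28%, 3.26% and 5.44%. With the other 3 arrays averaged as the reference 1 member was called in eys-/- (klf2a) and 1 in lrp5-/- (klf2b, at 1.07). That reference holds the other mutant arrays, so it does not repeat the comparison with wildtype. With the stricter filter 1 was called in eys-/- (klf2a). Under the averaged reference 13 of 30 differences moved by more than the robust SD, and among these klf4 in eys-/- (-0.18), klf9 in lrp5-/- (-0.56) and klf13 in lrp5-/- (-0.30), none of them called, changed sign. The other alternatives left the counts of members within 1.5 times, as did no filter and the removal of a level trend for the counts of list genes, the 2 alternatives run for those. Counting probe sets of several symbols gave no value, as none of them carries a member. Without a filter 256 genes were called in the double heterozygote, 161 in eys-/- and 126 in lrp5-/-, against 179, 66 and 70; between lrp5-/- and eys-/- 258 were, against 149, and between the double heterozygote and lrp5-/- 140, against 61. As shares of the genes tested, those without a filter were 1.33%, 0.836% and 0.654%, against 1.72%, 0.632% and 0.671%. Between the homozygotes the share was 1.34%, against 1.43%, and between double heterozygote and lrp5-/- 0.727%, against 0.59%. The stricter filter gave 39 (0.728%) in eys-/-, 98 (1.81%) between the homozygotes and 30 (0.559%) between double heterozygote and lrp5-/-. The averaged reference gave 104 (1.01%) in the double heterozygote and 33 (0.32%) in lrp5-/-. Readings near 6.57 are not shown to be above background, which limits klf11a, klf15 and the wildtype reading of klf9.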
